A study of Homo sapiens with 32 samples.

Results

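At CALCOCO1 and at the shared upstream region of TMEM150A and USP39, accessible chromatin at the transcript start was lower after dTAGV-1 while a weaker accessible window in the adjacent intron was higher. The windows described are all those of the deposited count table whose centre lay within 3000 bp of a GENCODE transcript start of these 3 genes, 11 of 212358 in all. There were 4 at CALCOCO1, 3 shared by TMEM150A and USP39, and 4 further ones at USP39. The 3 genes were chosen because of the difference between dTAGV-1 and control libraries, so every difference below between those groups is a description and carries no test of its own.

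ATAC-seq reads accessibility from the places where a transposase, Tn5, can cut exposed DNA and leave sequencing adapters. The cells were HEK_CloneZD29, a single clone of the human embryonic kidney line HEK293T, and in both groups ZNF143 was tagged with an inducible degron tag. Cells received 50 nM dTAGV-1, a compound that directs tagged proteins to degradation, for 30 min, or served as controls given as DMSO in the sample labels and as untreated in the protocol text. Counts covered 8 control and 8 dTAGV-1 libraries, replicates 9 to 16 of each group, while replicates 1 to 8 were represented by a list of peak summits. The labels do not say whether replicates were separate cultures, so the spread between them may be technical. ZNF143 protein was not analysed here.

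ZNF143 is a zinc finger activator that binds a long sequence at the promoters of many genes, close to where transcription starts. CALCOCO1 encodes a coiled-coil protein that acts as an autophagy receptor for the endoplasmic reticulum and was also described as a transcriptional coactivator. TMEM150A is a membrane protein that modulates the PI4KA lipid kinase complex at the plasma membrane. USP39 is a ubiquitin-protease-like protein without the usual protease activity and takes part in assembly of the U4/U6.U5 tri-snRNP, the particle that joins the spliceosome. TMEM150A and USP39 are transcribed away from each other from neighbouring starts.

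The sequences shown are those in the 2 lower windows that match a 12-base pattern, the letters ACTA and TCCC with any 4 bases between them. They are given because no other window of the 3 genes holds the pattern. Capitals mark the pattern, and all are from hg38, written 5′ to 3′ on the strand named.
CALCOCO1, chr12:53727551-53727576, plus strand: aggACTATACATCCCagaaggctgcg
CALCOCO1, chr12:53727621-53727646, minus strand: agaACTACGCCTCCCaggatgccgcg
TMEM150A and USP39, chr2:85602802-85602827, plus strand: gagACTACAACTCCCgagcccccgcg

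The pattern was chosen after these sequences had been read. The CALCOCO1 copies lay on opposite strands, 78 bp apart, 107 and 185 bp upstream of the CALCOCO1 start with the most annotated transcripts. Another annotated CALCOCO1 start, at position 53727606, lies between the copies. The copy at TMEM150A and USP39 lay between the opposed starts, 46 bp upstream of the USP39 start and 112 bp upstream of the TMEM150A start. On both strands, 1.36% of the 185040 tested windows, all 401 bp long, held the pattern, and 0.102% held 2 or more copies. Among windows centred within 500 bp of a transcript start the share was 2.63%. It was 78.0% among the 395 windows called lower over the whole table. The CALCOCO1 start window held 2 copies.

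Shorter stretches of the ZNF143 recognition sequence were not shared by both loci. The letters CCCA and ATGC with any 2 bases between them, held by 1.71% of tested windows, occurred once at the CALCOCO1 start, where it overlaps the minus-strand copy, and in none of the other 10 windows. ACTACA, held by 15.3%, occurred only in the TMEM150A and USP39 start window, inside the longer pattern. Among the 395 windows called lower, the shares were 19.0% for CCCA and ATGC and 81.5% for ACTACA. Neither of the windows that were higher after dTAGV-1 held any of these 3 patterns. The CALCOCO1 intronic window held 1 TGANTCA, the letters bound by AP1 factors, which 13.4% of tested windows also hold. So did the USP39 internal window, which was not called, while the USP39 intronic window held none. The CALCOCO1 intronic window also held 1 CCAAT and 1 GGGCGG, which 39.6% and 22.4% of tested windows hold. Both CCGGAAG matches, letters bound by ETS factors, lay in the USP39 and C2orf68 start window, against a share of 3.66% of tested windows. A match describes letters in a window and does not show binding.

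Library totals ran from 2275856 to 13671039 counts. Control replicate 12 was the smallest, and only 31.2% of its counts fell in the decile of windows with the most counts. That share was 37.7% and 40.1% in dTAGV-1 replicates 12 and 11, against 46.2% to 47.3% in 12 libraries, with control replicate 11 between them. Such a flatter profile lowers strong windows in relation to weak ones, so values are also given without replicates 11 and 12 of both groups. Of the 5 genes used as HEK293T markers, all had a tested window within 500 bp of a transcript start. Among markers of other cells, 1 of 3 blood genes, 0 of 3 liver genes and 2 of 3 endothelial genes had one, the last at no more than 0.86 log2 CPM in control.

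Levels are given as log2 CPM, counts scaled to library size with TMM factors and 2 as the prior count, as mean ± SD over 8 libraries a group. All windows have the same length, so levels need no scaling by length. They were not corrected for GC content, which differs between windows, so comparisons of level between windows are approximate. Fold changes and standard errors (SE) come from edgeR's quasi-likelihood fit over all 185040 tested windows. All 11 windows were tested, of which 2 were called lower and 2 higher at an adjusted p of 0.05. Of all tested windows 0.213% were called lower and 0.00108% higher. Because this contrast selected the genes, nothing is read from the members' count against those shares. The 2 higher windows were the only ones called in that direction, at adjusted p-values of 0.0152 and 0.0159 by edgeR with Benjamini-Hochberg adjustment, and the next window stood at 0.107 with a log2 fold change of 0.66. On the lower side, the last window inside the threshold had an adjusted p of 0.0498 and the first outside 0.0519, while the CALCOCO1 and the TMEM150A and USP39 start windows ranked 142 and 356 by p.

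The CALCOCO1 start window, chr12:53727404-53727804 of hg38, lies over the gene's untranslated first exon and the sequence upstream of it. CALCOCO1 is on the minus strand, and 8 of its 22 annotated transcripts begin at position 53727452. In control libraries this window was at 5.82 ± 0.48 (SD, n = 8), with a lowest value of 4.64, a median of 5.96 and a highest of 6.15. Its control mean ranked 787 of 185040, within the top 0.425%. After dTAGV-1 it was at 4.92 ± 0.26 (SD, n = 8), with a lowest of 4.38, a median of 5.00 and a highest of 5.20. Of the 8 control libraries 7 lay above every dTAGV-1 library, and the exception was replicate 12. A complete separation of the groups was seen in 0.0713% of tested windows with dTAGV-1 lower and in 0.00324% with dTAGV-1 higher. The log2 fold change was -0.95 (SE 0.16), which leaves 51.9% of the control level. Without replicates 11 and 12 the groups did not overlap, at 6.0 ± 0.09 and 5.04 ± 0.13 (SD, n = 6). With 6 libraries a group, separation is easier to reach. Its share among all tested windows was not counted, here or for the windows below.

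The CALCOCO1 intronic window, chr12:53726845-53727245, lies inside the gene, 158 bp from the edge of the start window, with 559 bp between their centres. Its centre is 383 bp downstream of the nearest annotated start. Control libraries were at 1.76 ± 0.45 (SD, n = 8), with a lowest of 1.08, a median of 1.82 and a highest of 2.43. It thus ranked in the top 40.3% of tested windows in control, far below the window at the start. After dTAGV-1 the level was 2.59 ± 0.24 (SD, n = 8), from 2.27 through a median of 2.59 to 3.03. Of the dTAGV-1 libraries 6 of 8 lay above every control library, and 7 of 8 control libraries lay below every dTAGV-1 library. The log2 fold change was 0.79 (SE 0.17), or 1.73-fold higher. These levels rest on 5 to 49 counts in control and 18 to 80 counts in dTAGV-1 libraries. Without replicates 11 and 12 the levels were 1.96 ± 0.29 and 2.61 ± 0.25 (SD, n = 6), and the groups still overlapped, with 5 of 6 dTAGV-1 libraries above every control library. The call at this window was lost when control replicate 11 (log2 fold change 0.72, adjusted p = 0.0655 by edgeR), control replicate 15 (0.75, 0.0641) or dTAGV-1 replicate 14 (0.71, 0.0972) was left out.

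The other CALCOCO1 windows lie further into the gene and were weak in both groups. An intronic window at chr12:53719636-53720036, 58 bp from the start of an alternative transcript, was at 0.94 ± 0.35 in control and 0.90 ± 0.71 after dTAGV-1 (SD, n = 8). The window in the untranslated region near the end of the gene, chr12:53712229-53712629, was at 1.42 ± 0.36 and 1.56 ± 0.45 (SD, n = 8). Neither was called, with log2 fold changes of 0.053 (SE 0.28) and 0.15 (SE 0.22), and the groups overlapped at both.

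TMEM150A runs on the minus strand from position 85602698 of chromosome 2, and USP39 runs on the plus strand from position 85602856, 158 bp away. Of the 20 USP39 transcripts 2 begin there and neither is protein-coding. The protein-coding ones begin at 85611378 to 85612122, with 4 of 6 transcripts, and at 85616143 to 85616290, with 4 of 7. The shared upstream region is covered by 3 windows in a row, of which the middle one overlaps the first by 101 bp and the last by 40 bp, so that these neighbours share counts. The outer windows do not overlap, with a gap of 260 bp.

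The start window, chr2:85602532-85602932, spans both opposed starts. Its GC content was 73.3% and it held 48 CpG dinucleotides, more than or as many as 96.6% of tested windows. Control libraries were at 4.50 ± 0.93 (SD, n = 8), with a lowest of 2.24, a median of 4.84 and a highest of 5.01, and the mean ranked in the top 3.65%. The low value was that of replicate 12, which accounts for much of the SD. After dTAGV-1 the level was 3.82 ± 0.43 (SD, n = 8), with a lowest of 3.04, a median of 3.94 and a highest of 4.20. Of the control libraries 7 of 8 lay above every dTAGV-1 library. The log2 fold change was -0.83 (SE 0.19), or 56.4% of the control level. Without replicates 11 and 12 the groups were apart, at 4.90 ± 0.09 and 3.96 ± 0.34 (SD, n = 6).

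The call at this start window moved with the libraries used and the test. Its adjusted p by edgeR was 0.0264 with all 16 libraries, 1.42e-11 without replicates 11 and 12 and 8.8e-07 without control replicate 12 alone, and limma voom gave 0.00249. It was lost when control replicate 9, 10, 13, 14, 15 or 16 or dTAGV-1 replicate 9 or 16 was left out, at log2 fold changes of -0.81 to -0.78 and adjusted p-values of 0.0893 to 0.159 by edgeR. DESeq2's Wald test gave -0.82 with an adjusted p of 0.758, and edgeR with no filter on low counts gave -0.83 with 0.0515. Over these and the other alternatives the log2 fold change stayed between -0.95 and -0.76.

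The middle window, chr2:85602832-85603232, lies over a noncoding exon and was between its neighbours in level and in change. It was at 3.39 ± 0.73 in control and 3.28 ± 0.22 after dTAGV-1 (SD, n = 8). The window was not called, with a log2 fold change of -0.26 (SE 0.16). Of the 8 control libraries 6 lay above every dTAGV-1 library. Without replicates 11 and 12 the groups did not overlap, at 3.72 ± 0.14 and 3.34 ± 0.14 (SD, n = 6). The window was not called in that setting either, at an adjusted p of 0.221 by edgeR. Moving from the TMEM150A start into USP39, the log2 fold changes thus ran -0.83, -0.26 and 0.82.

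The last of the row, chr2:85603193-85603593, lies in the USP39 intron, with its centre 537 bp downstream of the upstream USP39 start and 197 bp upstream of an alternative TMEM150A start at position 85603196. Its GC content of 43.4% was well below that of the start window. Control libraries were at 1.64 ± 0.51 (SD, n = 8), with a lowest of 0.45, a median of 1.76 and a highest of 2.11. After dTAGV-1 the level was 2.48 ± 0.36 (SD, n = 8), with a lowest of 2.08, a median of 2.41 and a highest of 2.92. All dTAGV-1 libraries but 1 of 8 lay above every control library. The log2 fold change was 0.82 (SE 0.18), or 1.76-fold higher, on 3 to 35 counts in control and 20 to 95 counts in dTAGV-1 libraries. Without replicates 11 and 12 the levels were 1.84 ± 0.17 and 2.52 ± 0.39 (SD, n = 6), and the groups again overlapped, with 5 of 6 above. This call was lost when control replicate 9 (0.80, adjusted p = 0.057 by edgeR) or dTAGV-1 replicate 10 (0.74, 0.11), 13 (0.76, 0.0809) or 14 (0.76, 0.0813) was left out.

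**Figure D1:**
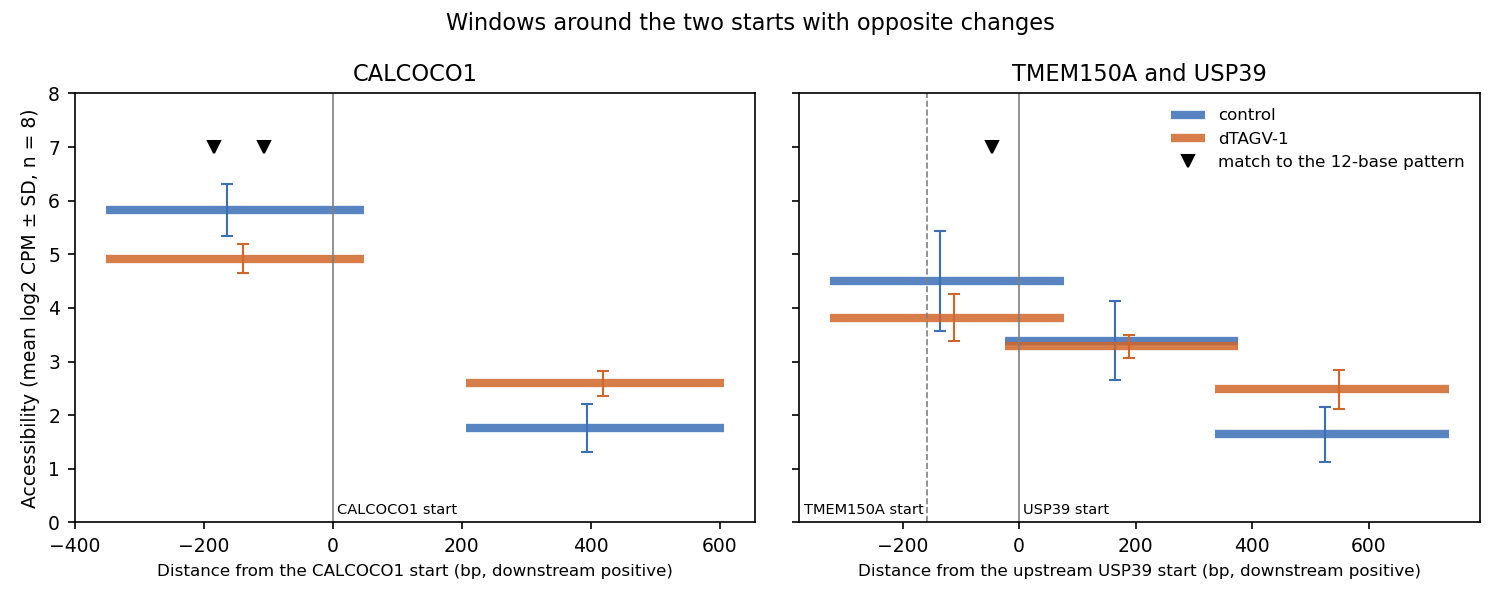
Mean accessibility (log2 CPM, vertical axis; thick lines, each as wide as its window; thin bars, SD over 8 libraries) against distance from the CALCOCO1 start (left) and from the upstream USP39 start (right), for control and dTAGV-1 libraries. Control lies above dTAGV-1 over the starts (5.82 against 4.92 and 4.50 against 3.82) and below it in the introns (1.76 against 2.59 and 1.64 against 2.48), and triangles mark matches to the 12-base pattern.

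The start windows from which protein-coding USP39 transcripts begin had similar levels in both groups. The window shared with the opposed gene C2orf68, chr2:85611887-85612287, centred 16 bp from a USP39 start and 21 bp from a C2orf68 start, was at 4.37 ± 0.33 in control and 4.29 ± 0.29 after dTAGV-1 (SD, n = 8). Its flank, chr2:85612246-85612646, which overlaps it by 42 bp, was at 2.55 ± 0.32 and 2.47 ± 0.25 (SD, n = 8). The window at the downstream start cluster, chr2:85615932-85616332, was at 4.51 ± 0.17 and 4.53 ± 0.21 (SD, n = 8). This last level was almost that of the shared upstream start window in control.

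None of these windows, nor the internal USP39 window at chr2:85637445-85637845 with 3.34 ± 0.26 and 3.30 ± 0.34 (SD, n = 8), was called. Their log2 fold changes were -0.083 (SE 0.14), -0.12 (SE 0.15), 0.027 (SE 0.13) and -0.032 (SE 0.15) in the order given. Called differences at USP39 were therefore found at the upstream start, where no protein-coding USP39 transcript is annotated to begin, and not at the other 4 windows. The differences between these fold changes were not tested.

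**Figure D2:**
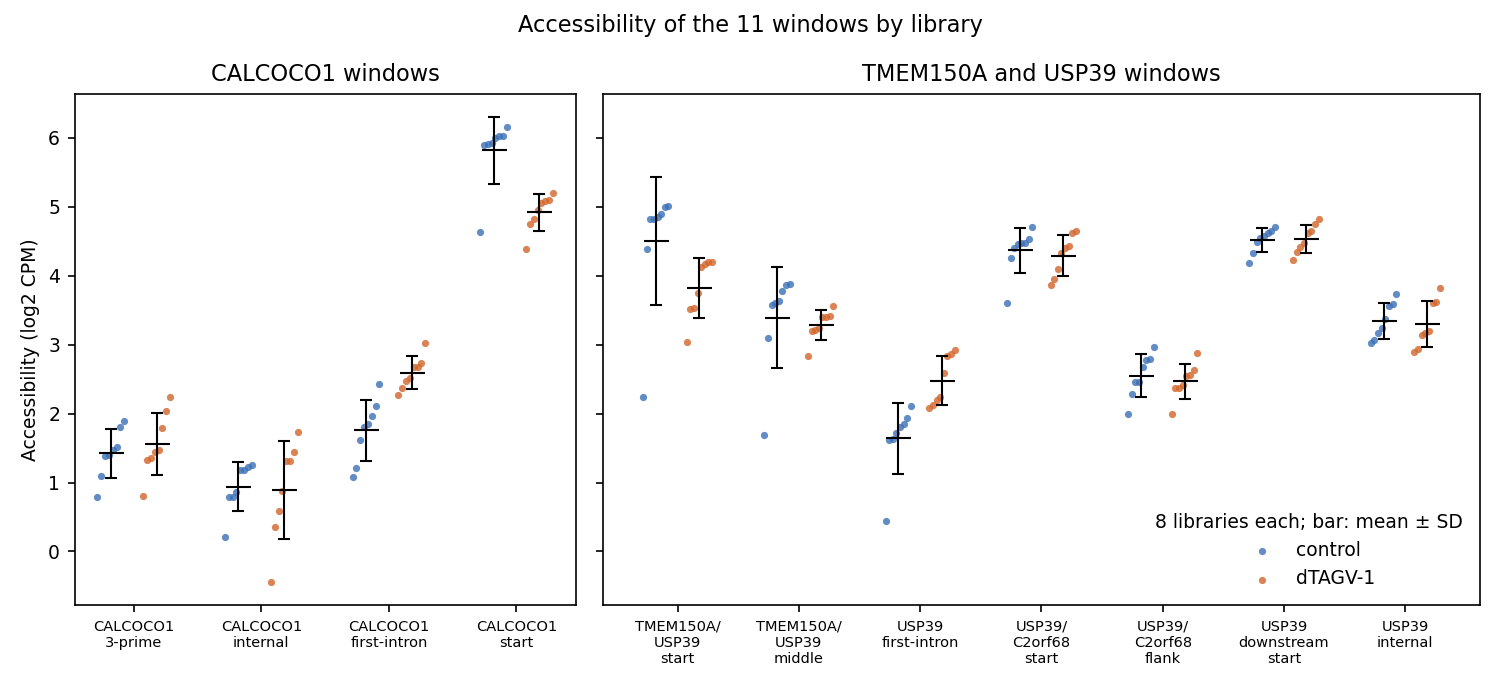
Accessibility in each of the 11 windows (log2 CPM, vertical axis; points, the 8 libraries of a group; bars, mean ± SD; first-intron marks the adjacent intronic windows and 3-prime the one near the end of CALCOCO1). The start windows of CALCOCO1 and of TMEM150A and USP39 are lower and the adjacent intronic windows higher after dTAGV-1, the other 7 windows were not called, and control replicate 12 is the low point at 4.64 and 2.24 in the start windows.

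The level of the intronic window in relation to the start window was taken within each library, where a difference in depth cancels. At CALCOCO1 the log2 ratio was -4.06 ± 0.40 in control (SD, n = 8), with a lowest of -4.71, a median of -4.11 and a highest of -3.56. After dTAGV-1 it was -2.33 ± 0.36 (SD, n = 8), with a lowest of -2.93, a median of -2.29 and a highest of -1.93. The groups did not overlap, and their means differed by 1.74. This ratio combines the changes that selected the locus, and the share of all neighbouring pairs so separated was not counted. Among other pairs with opposite changes, some were also apart, such as BOD1 (highest control -2.03, lowest dTAGV-1 -1.42). Others overlapped, such as IFRD2. In percent, the intronic window held 6.17 ± 1.66% of the start window's level in control and 20.5 ± 4.79% after dTAGV-1.

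At TMEM150A and USP39 the log2 ratio was -2.86 ± 0.46 in control (SD, n = 8), with a lowest of -3.26, a median of -2.95 and a highest of -1.79. After dTAGV-1 it was -1.34 ± 0.43 (SD, n = 8), with a lowest of -1.98, a median of -1.36 and a highest of -0.45. Of the dTAGV-1 libraries 7 of 8 lay above every control library, and the highest control library was the flat replicate 12. In percent, the ratio was 14.5 ± 5.97% in control and 41.3 ± 14.1% after dTAGV-1. Without replicates 11 and 12 neither locus showed overlap, with differences of 1.61 at CALCOCO1 and 1.62 at TMEM150A and USP39 (n = 6). The share of all neighbouring pairs so separated was not counted. In control replicate 12 the flat profile and the high ratio at this locus went together, and the part of the one in the other was not tested.

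**Figure D3:**
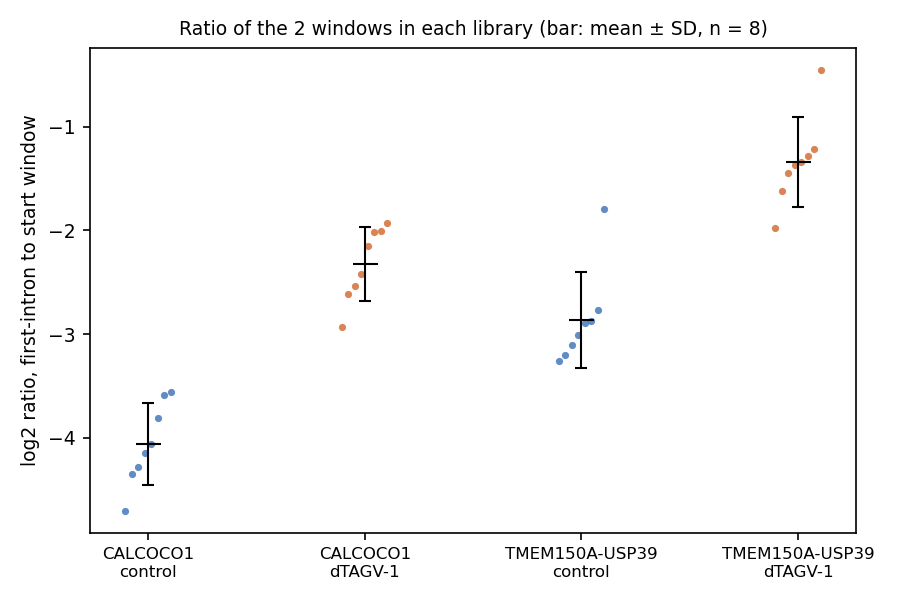
Log2 ratio of the intronic to the start window in each library (vertical axis; points, 8 libraries a group; bars, mean ± SD) at both loci. At CALCOCO1 the lowest dTAGV-1 library (-2.93) lies above the highest control library (-3.56), and at TMEM150A and USP39 1 control library (-1.79) reaches into the dTAGV-1 range.

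On a linear scale the windows that were higher gained much less than their neighbours lost. At CALCOCO1 the intronic window was at 3.28 ± 1.06 CPM in control and 5.86 ± 1.04 CPM after dTAGV-1 (SD, n = 8), a difference of 2.59 CPM. The start window went from 58.5 ± 14.2 to 30.4 ± 5.15 CPM, a difference of 28.1 CPM, so the gain came to 9.20% of the loss. At TMEM150A and USP39 the gain was 2.47 CPM and the loss 11 CPM, or 22.5%. Both gains were thus of similar size, while the losses were not.

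The mean summed counts of both loci were lower after dTAGV-1, with overlap between the groups at each. Over the 4 CALCOCO1 windows the sum was at 6.0 ± 0.45 log2 CPM in control and 5.35 ± 0.21 after dTAGV-1 (SD, n = 8), or 63.8% of control. Over 5 non-overlapping windows of TMEM150A and USP39 it was at 6.33 ± 0.37 and 6.17 ± 0.25 (SD, n = 8), or 89.6% of control. That difference of -0.16 on the log2 scale was -0.28 without control replicate 12 and -0.10 without dTAGV-1 replicate 12. The USP39 start windows that were similar in both groups make up most of that sum.

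The summit list of replicates 1 to 8, which played no role in choosing the genes, placed exactly 1 summit in each of the 11 windows. The share of all windows that hold a summit was not counted, so this does not set the 11 windows apart. The list gives no value per library, so it shows where peaks were called and not how groups differ. The CALCOCO1 start summit was among the top 0.473% of 259926 summits by the authors' score, and the start window was among the top 0.467% of the count table by the authors' -log10 q. The intronic CALCOCO1 summit stood in the top 37.1%. At TMEM150A and USP39 the order differed between the lists. By the authors' summit scores the start, middle and intronic positions stood in the top 24.2%, 25.5% and 21.0%, while by -log10 q in the count table they stood in the top 3.37%, 24.0% and 45.0%. Ranks from lists of different lengths show no change between sets of replicates.

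Few pairs of neighbouring windows differed between the groups in both windows, whether in opposite directions or in the same one. Of 41577 pairs of non-overlapping tested windows with centres within 1000 bp, 27, or 0.0649%, had 1 window higher and the other lower, each at an unadjusted p below 0.05 in edgeR's fit. A further 25 pairs differed in the same direction by that measure, 18 lower and 7 higher, so opposite pairs were about as many at this setting. The balance changed with the setting. It was 3 opposite against 11 same-direction pairs with centres within 500 bp, and 36 against 41 within 2000 bp. At an unadjusted p below 0.01 in edgeR's fit it was 8 against 2. Of single tested windows, 1.30% were higher and 1.55% lower at such a p. The share of opposite pairs that unrelated windows would give was not computed. In 4 pairs both windows were called after adjustment, and of those the 2 opposite pairs were those at CALCOCO1 and at TMEM150A and USP39, as their selection required.

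In each of the 25 other opposite pairs the window that was lower was also the stronger one in control. Control level is one side of the contrast that picked these pairs, so it is not independent of that choice. The median difference in control level was 2.24 log2 CPM. Margins could be small, and at LMO7 the log2 ratio of higher to lower window was -0.34 in control and 0.61 after dTAGV-1. Among the lower windows of the 25 pairs, 22 were centred within 500 bp of a transcript start, as were 17 of the higher windows. Of all 185040 tested windows 38119 were so placed, and the share among all neighbouring pairs was not counted. The median distance between centres of the 25 pairs was 713 bp. The 25 pairs had 24 distinct lower windows, of which 14, or 58.3%, held the 12-base pattern shown above, and 23 distinct higher windows, of which 1, or 4.35%, did. The shorter pattern of CCCA and ATGC was in 6 of the 24. These pairs were picked by the same contrast, so their windows differ between groups by construction, but neither position nor sequence entered that choice. None of their higher windows was called, and 10 of the 25 pairs had a called lower window.

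Around windows called lower, a small share of neighbours was higher, but a larger one than over the table. The neighbours counted were tested windows centred within 1000 bp of a window called lower, not overlapping it and not themselves called lower. Of these 185 windows, 100, or 54.1%, had a positive log2 fold change, against 51.8% of all tested windows. Their median log2 fold change was 0.016. Of the 185, 11, or 5.95%, had a positive sign with an unadjusted p below 0.05 in edgeR's fit, against 1.30% of all tested windows. Without the CALCOCO1 and USP39 intronic windows these were 9 of 183, or 4.92%. A negative sign with such a p was found in 4 of the 185, or 2.16%, against 1.34% of tested windows not called lower. The difference between these shares was not tested, and neighbours in 1 region are not independent.

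**Figure D4:**
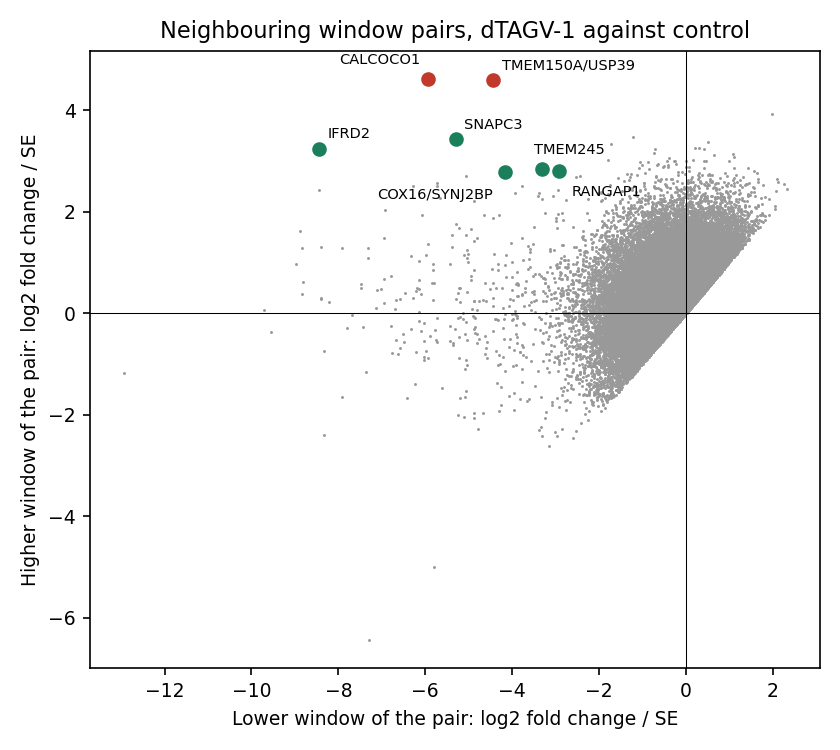
Log2 fold change divided by its standard error for 41577 pairs of neighbouring windows, with the more negative window of each pair on the horizontal and the more positive on the vertical axis; the empty lower right is set by that ordering. The CALCOCO1 and TMEM150A/USP39 pairs (red) stand at the top, where they were picked for, and the 5 pairs most like them (green) lie below 3.5 on the vertical axis.

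The pairs most like these were ranked by the smaller of the 2 sizes of log2 fold change over SE, which was 4.62 at CALCOCO1 and 4.43 at TMEM150A and USP39, over 16 libraries. Next came SNAPC3, which encodes a subunit of the complex that activates small nuclear RNA genes, at 3.44. Its start window went from 5.68 to 4.83 log2 CPM (log2 fold change -0.87, SE 0.16, called lower), and a window 773 bp away in its intron from 2.29 to 2.74 (0.51, SE 0.15, not called). IFRD2 followed at 3.25, with log2 fold changes of -1.29 (SE 0.15, called lower) and 0.54 (SE 0.17, not called). TMEM245 stood at 2.85, RANGAP1, the GTPase-activating protein of Ran, at 2.80, and the neighbours SYNJ2BP and COX16 at 2.78, with neither window called in these 3. The lower windows of SNAPC3, IFRD2, TMEM245 and RANGAP1 held the 12-base pattern and that of SYNJ2BP did not, while no higher window of the 5 did. As at the CALCOCO1 start, the copies numbered 2 in IFRD2, TMEM245 and RANGAP1. The higher window was intronic in 2 of the 5, SNAPC3 and COX16, as at CALCOCO1 and USP39.

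Genes that work with these 3 were read at windows centred within 500 bp of their starts. Of 19 autophagy receptors and their partners, 18 had such a window, and of their 58 windows 0 were called in either direction, with a median log2 fold change of -0.0038. As 0.215% of all tested windows were called, a count of 0 in a list of this size is near the background. Among them CALCOCO2, the paralogue of CALCOCO1, had 1 window, with a log2 fold change of -0.17 (SE 0.13). Of 11 genes of the TMEM150 and DRAM family and the PI4KA complex, 10 had a window, and of 33 windows 0 were called, which is again near the background, with a median of -0.0077.

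Of 17 genes for proteins of the U4/U6.U5 tri-snRNP, which USP39 helps to assemble, 16 had a window, and 1 of 34 windows was called lower and 0 higher, beside 0.213% and 0.00108% of all tested windows. The median was 0.0057, beside 0.0077 over all tested windows. The called window, chr9:113275401-113275801, is at the start of PRPF4, which encodes a U4/U6 protein, and is shared with CDC26. It went from 5.54 ± 0.31 in control to 4.90 ± 0.23 after dTAGV-1 (SD, n = 8), a log2 fold change of -0.66 (SE 0.15). These 3 lists were assembled with earlier results of these data known, and the call is one of the 395.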

How the data were processed

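Counts were deposited by the authors as whole numbers per 401 bp window and library, not normalized, per the file headers and values, for replicates 9 to 16. The authors' -log10 q per window and -log10 score per summit (replicates 1 to 8) were used only to rank within each list. Per the submitters' processing notes, cutadapt 1.8.1, Bowtie2 2.4.4, SAMtools 1.9 and hg38 were used. Peak caller, counting tool and any Tn5 shift are not given in the sources used here. Such a shift is small beside the window length and would apply to both groups alike.

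Groups follow the labels. After filterByExpr and TMM scaling, edgeR 4.0.16 under R 4.3.3 compared the groups by its quasi-likelihood test without covariates. Benjamini-Hochberg adjustment ran over 185040 windows, threshold 0.05. The script was tested on simulated counts with 50 windows at each log2 change. It called 30 at -2, 15 at -1, 26 at 1 and 50 at 2, with 5 false calls. A window that was not called may thus still differ. DESeq2 1.42.0 and limma 3.58.1 gave alternatives. Transcript starts came from GENCODE release 44 and sequences from hg38. Genes, lists and tests were chosen with earlier results of these data known. Named in the text are all windows within 3000 bp of a start of the 3 genes, neighbouring genes, and the 5 opposite pairs elsewhere with the largest smaller ratio of log2 fold change to SE. PRPF4 and CALCOCO2 were singled out after their values were seen. Over 56 pairs of libraries of 1 group, chi-square per degree of freedom lay between 1.65 and 4.89, so none agreed within sampling noise and all 16 were counted.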

Additional observations from a re-analysis of the deposited data

Results flagged for a closer look

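In 26 groups of 8 libraries (the 11 windows and the 2 ratios, in each group), a library stood far from the others 7 times, and chance alone marks about 1 group in 20. Control replicate 12, the smallest and flattest library, accounts for 6 of them. It was low at the CALCOCO1 start window at 4.64 log2 CPM (nearest library 5.90), the TMEM150A and USP39 start window at 2.24 (4.39), the middle window at 1.69 (3.10), the USP39 intronic window at 0.45 (1.62) and the USP39 and C2orf68 start window at 3.61 (4.26). It was high in the log2 ratio of the intronic to the start window at TMEM150A and USP39, at -1.79 (-2.77). Control replicate 13 was low in the weak internal window of CALCOCO1, at 0.21 log2 CPM (0.79).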

How the results depend on the processing

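The CALCOCO1 start window kept its call in all 22 alternatives (log2 fold change -1.05 to -0.89), the CALCOCO1 intronic window in 19 (0.68 to 0.91), the USP39 intronic window in 18 (0.74 to 0.88) and the TMEM150A and USP39 start window in 12 (-0.95 to -0.76), and none of these 4 changed direction. The differences in ratio stayed at 1.61 to 1.82 for CALCOCO1 and 1.40 to 1.68 for TMEM150A and USP39, and those in summed counts at -0.81 to -0.59 and -0.28 to -0.10. The other 7 windows were called in none, and of these 3 changed sign. The CALCOCO1 internal window stood at -0.012 with the replicate block and -0.069 with limma voom, and ran from -0.15 to 0.21 with 1 library left out. In the same way the USP39 downstream start ran from -0.016 to 0.063 and the USP39 internal window from -0.12 to 0.035.

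Over the whole table, 742 windows were called lower and 11 higher with the replicate number as a block (replicate block), and 767 and 14 without replicates 11 and 12. Leaving out 1 library gave 318 to 627 lower and 0 to 5 higher calls, with both highest counts without control replicate 12 and 0 without dTAGV-1 replicate 14. Higher calls numbered 5 with limma voom and 4 with DESeq2. Opposite pairs numbered 3 of 10633 with centres within 500 bp and 36 of 70434 within 2000 bp. They numbered 8 of 41577 at an unadjusted p below 0.01 in edgeR's fit. Same-direction pairs numbered 11, 41 and 2 at these settings. The labels do not say that a replicate number marks a shared day, and libraries of the same number correlated at 0.028 to 0.336 in their deviations from group means, over 0.1 for 5 of 8 numbers, above the median of other numbers (-0.15 to 0.075) for 8 of 8 and best with their own number for 4. This is a hint from the data and not from the design, and since not every value passed 0.1 no pairing was used. Counts below 100 limit the intronic windows.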
